A study of Mus musculus with 8 samples.

Results

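C/EBPα occupancy was compared directly between mouse bone marrow progenitors carrying either of 2 variants, DC and DE in the labels, of the Zeb2 -165 kb enhancer. The cells were sorted as Lin- KIThi-int FLT3+, and occupancy was read by CUT&RUN, in which a nuclease tethered to the antibody releases the DNA beside the bound protein. The comparison used the deposited peak list of 1 library of each genotype in each of 2 batches, 4 lists in all, and replicate 1 is batch 1 throughout. Overlapping peaks of these 4 lists (1 bp or more) were joined into 198444 autosomal regions. That compares with 259446 regions on all chromosomes when the lists of all 6 anti-C/EBPα libraries were joined. The other 2 libraries came from WT progenitors of the same batches, and their values are given as a description only. The labels give neither the bases altered in DC and DE nor whether the alleles were homozygous, and they state no age or sex of the mice. Nor do they say whether the libraries of a genotype came from separate animals. The p-values therefore rest on a spread between these libraries, pooled over regions, which may be technical.

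C/EBPα is a basic leucine zipper factor that binds DNA as a dimer and drives the formation of granulocyte and monocyte progenitors. Zeb2 encodes a zinc-finger repressor that favours monocytes, plasmacytoid dendritic cells and cDC2 over cDC1, a dendritic cell type specialised in cross-presentation. Published work has described sites for C/EBP factors and for the repressor NFIL3 in the enhancer upstream of Zeb2, and which of them differ in DC and DE is not stated in the labels.

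The measure used is the summit pileup, the number of fragments stacked over the highest point of a peak, worked back from the fold and p-value that the authors deposited. Read totals were not given, so sequencing depth is unknown, and the pileup mixes depth with enrichment. The DC replicate 1 list stood apart with 163656 autosomal peaks, against 49038 to 56036 in the other 3. Its median pileup at the shared regions was also the highest, at 50 fragments, against 37 in DE replicate 1, 21 in DC replicate 2 and 27 in DE replicate 2. Its floor, the lowest local background of a library, was not the highest. The floors were 1.11 fragments in DC replicate 1, 1.53 in DE replicate 1, 0.37 in DC replicate 2 and 0.41 in DE replicate 2. Scaling by floors in place of shared regions is given below as an alternative. Pileups were therefore divided by a library factor that sets the median difference over shared regions to 0, and DC was compared with DE inside each batch. Scaled pileups below carry this factor, and pileups not called scaled are the recovered numbers. The sort could be checked against binding only. Of 7 regions tested within 10 kb of Flt3, the strongest held 227 and 46 fragments in DC against 225 and 97 in DE. The 1 region at Kit held 17 and 19 in DC against 12 and 9 in DE. No region near the T-cell gene Cd3e was called in all 4 libraries. A region 2.49 kb from Cd3g, another T-cell gene, was, with 169 and 60 in DC against 88 and 72 in DE. Binding near T-cell genes thus cannot show whether T cells were absent.

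The largest loss at a strongly bound region lay at the Zeb2 enhancer itself. The region at chr2:45279456-45279841 (mm10), between genes and 162.0 kb upstream of the Zeb2 start, held 100 fragments in DC replicate 1 and 357 in DE replicate 1. In batch 2 it held 243 fragments in DE replicate 2 and no peak was called in DC replicate 2. The WT libraries held 338 and 318. Both DE libraries thus stood near WT, while DC replicate 1 was far below and DC replicate 2 had no call. Of the regions within 10 kb of the position in the enhancer's name, the one with the highest pileup was taken as the enhancer peak. That pileup was the 357 of DE replicate 1, which also enters the batch 1 ratio, so this ratio may overstate the drop. After scaling, DC replicate 1 had 0.21 times the DE level in batch 1 (95% exact binomial interval 0.16 to 0.26). These intervals cover counting error only, since each batch held 1 library of each genotype and no spread between libraries enters. They may be too narrow even for that, since PCR copies of a fragment cannot be told apart here. With the library floors, the lowest local backgrounds, as the scale in place of shared regions, the ratio was 0.39. In batch 2 the highest pileup that would have stayed uncalled in DC replicate 2 was 35 fragments, taking its local background from DE replicate 2, so DE was at least 5.22-fold higher. That background was high, at 21.7 fragments or 53.3 times the floor of DE replicate 2, against 3.09 times in DE replicate 1 and 1.89 times in DC replicate 1. With the background taken from DC replicate 1 instead, a choice made after the data were seen, the limit was 4 fragments and the fold 45.7. That library is of the other batch, and the background of DC replicate 2 was not measured here. The 45.7 therefore shows how far the limit depends on the background, and is not a bound. The summits of the 3 called peaks lay at 45279650 in DC replicate 1, 45279619 in DE replicate 1 and 45279616 in DE replicate 2.

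The regions beside the enhancer peak were lower in DC by smaller amounts. A region 159.2 kb upstream (chr2:45276687-45277185) held 94 and 27 fragments in DC against 106 and 90 in DE, or 59.4 and 41.8 against 91.1 and 105 after scaling. The groups did not overlap, and the DC to DE ratios were 0.65 (0.49 to 0.87) and 0.40 (0.25 to 0.62). The estimate over both batches, -0.97 ± 0.28 (log2, SE), missed the threshold, with a limma adjusted p of 0.114. The stronger region at 144.5 kb (chr2:45261918-45262496) held 234 and 76 fragments in DC against 267 and 154 in DE, with ratios of 0.64 (0.54 to 0.77) and 0.66 (0.49 to 0.87). Its log2 estimate was -0.62 ± 0.22 (SE), with a limma adjusted p of 0.307. Both of these regions had scaled DC values below both DE values, as 15.5% of all tested regions did. Weaker regions at 160.3 kb and 129.1 kb had batch 1 ratios of 0.60 (0.34 to 1.04) and 0.71 (0.39 to 1.29). Neither was called in DC replicate 2, where the limits put DE at least 3.01-fold and 1.95-fold higher. Thus all 5 upstream regions that could be compared in both batches, the enhancer peak among them, were lower in DC in both. At the enhancer peak and at 160.3 and 129.1 kb the batch 2 drop rests on the call limit. Of all tested regions, 53.8% went the same way in both batches, counting either direction. The region at 147.4 kb was called in DC replicate 1 with 12 fragments and DE replicate 2 with 23, and that at 153.8 kb in batch 1 alone, with 16 in DC and 8 in DE, so neither could be compared in both batches. With floor scaling the direction in batch 1 turned at the 4 neighbours, to ratios of 1.22, 1.21, 1.12 and 1.32 for the regions at 159.2, 144.5, 160.3 and 129.1 kb, and it did not turn at the enhancer peak.

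Inside Zeb2 and downstream of it no such shift was seen. Of the 6 regions there called in all 4 libraries, 1 was lower and 1 was higher in DC in both batches, and the other 4 were higher in one batch and lower in the other. The region nearest the Zeb2 start, inside the gene, held 56 and 16 fragments in DC against 36 and 30 in DE, with overlapping scaled values. Over these 6 the log2 estimates ran from -0.36 ± 0.37 (SE) to 0.32 ± 0.32 (SE), and the smallest limma adjusted p was 0.849.

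**Figure D1:**
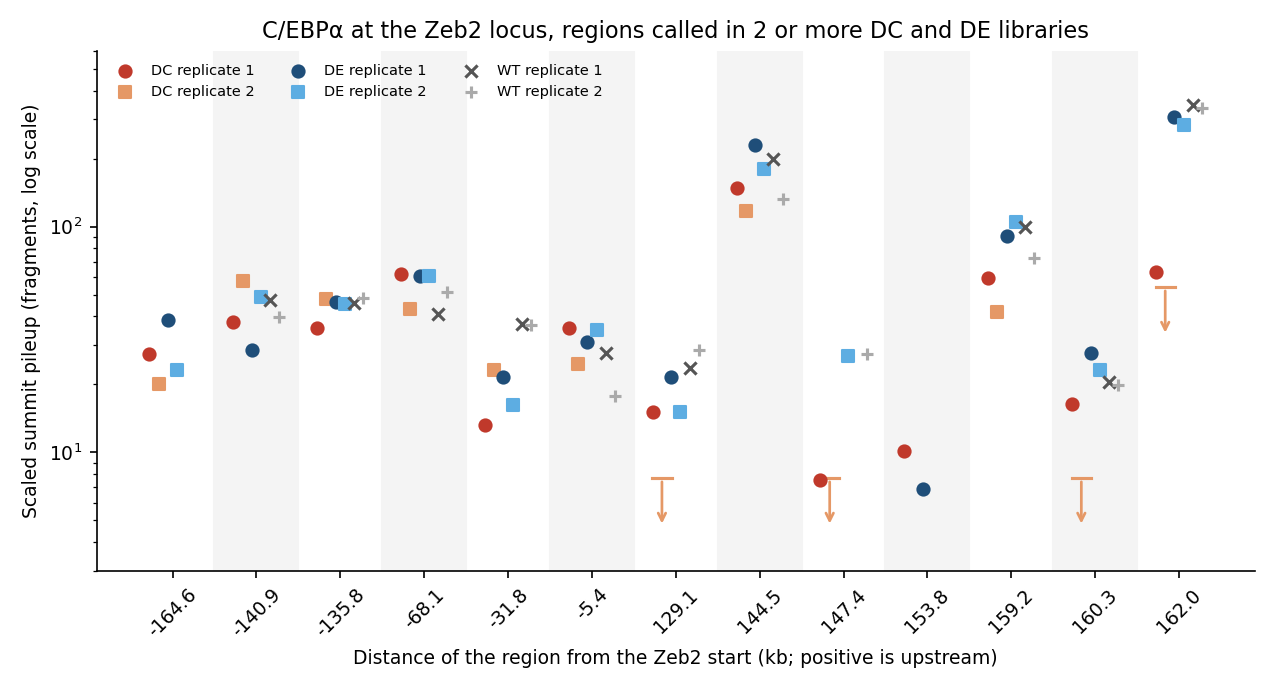
Scaled summit pileup (fragments, log scale) of each library at the 13 regions of the Zeb2 locus called in at least 2 of the 4 DC and DE libraries, ordered by distance from the Zeb2 start (kb, evenly spaced, positive is upstream). Bars with arrows mark the limit for DC replicate 2 where it had no call and DE replicate 2 had one; at 162.0 kb DC replicate 1 and this limit lie far below the DE and WT points.

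Set against all bound regions, the enhancer stood apart by size of loss at its strength. Of 32848 regions called in both DE libraries with a recovered pileup, 669 were at least 2-fold lower in DC in both batches, a missing call being set at its limit (2.04%). Most of these were weak, with median DE pileups of 19 and 12 fragments. Ranked by the smaller of the 2 drops the enhancer was the 6th, and the 5 above it held at most 52 fragments in DE. Among the 2126 regions with at least 100 fragments in both DE libraries it was the only one at least 2-fold lower in both batches. The next was a region in Dynlt1b, with log2 ratios of -1.49 and -0.96, where WT was nearer to DC than to DE. No call was made in DC replicate 2 at 12 of the 2126, the enhancer among them. In the other direction, 1071 of 35591 regions called in both DC libraries were at least 2-fold higher in DC in both batches (3.01%), and none of the 1125 with at least 100 fragments in both DC libraries was. The cut of 100 was on unscaled pileups, which scaling multiplies by 0.86 and 1.16 in DE and by 0.63 and 1.55 in DC. The 2126 and the 1125 are thus not matched sets. Each set was also picked by the pileups of the genotype in which a change would show as higher, so these counts describe and hold no test. The balance of these counts moved with the scaling. With floor scaling 2220 were higher and 237 lower, and among regions called in all 4 libraries 86 were higher and 74 lower. By the ratio of batch 2 only, over the same regions called in both libraries of a genotype, 4710 were higher and 3625 lower. By the ratio of batch 1 only, the counts were 3543 and 2708.

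**Figure D2:**
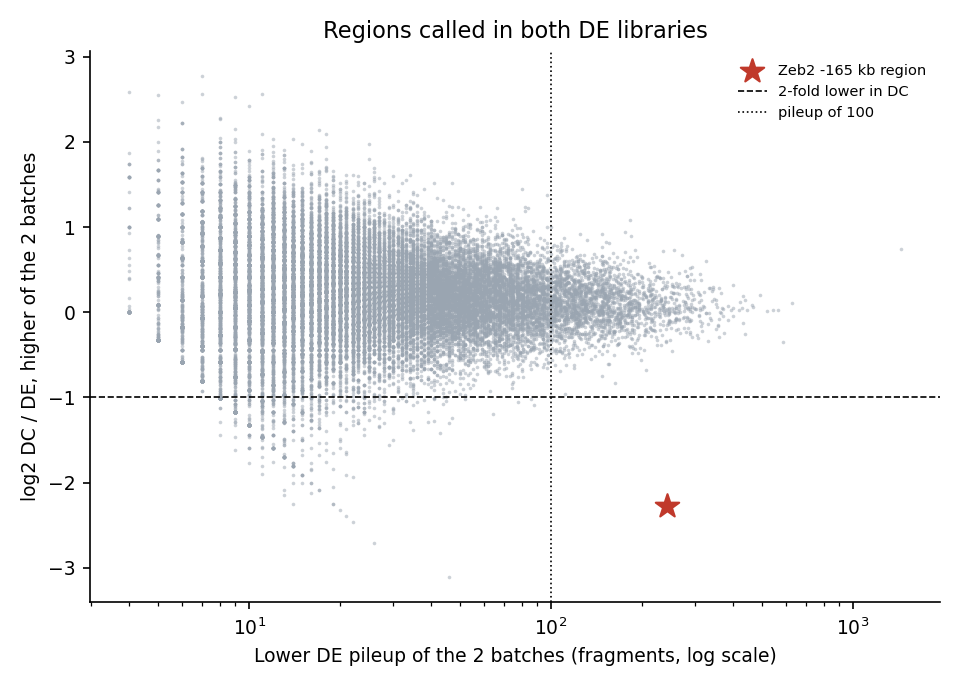
Each point is a region called in both DE libraries, placed by its lower DE pileup of the 2 batches (fragments, log scale) and by the higher of its 2 within-batch log2 DC to DE ratios. The star is the Zeb2 -165 kb region, the only region right of a pileup of 100 that falls under the 2-fold line.

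Most regions that both libraries of a genotype shared were also shared by the other genotype. Of regions called in both DC libraries 76.8% were called in both DE libraries, and of those called in both DE libraries 83.3% were called in both DC libraries. Within a batch the overlap was smaller: 22.7% of DC and 73.4% of DE regions were shared in batch 1, and 69.9% and 60.7% in batch 2. At the 27353 regions with pileups in all 4 libraries, the within-batch log2 ratios had an SD of 0.55 in batch 1 and 0.53 in batch 2, and 87.3% lay within 2-fold in both batches. The ratios of the 2 batches went the same way at 53.8% of regions. Across these regions the batch 1 and batch 2 ratios correlated with r = 0.13, a description over regions of the same libraries, which are not independent replicates. Regions at least 2-fold higher in batch 1 and at least 2-fold lower in batch 2 numbered 15, and 31 did the opposite.

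In the limma fit with batch as a term, 26 of the 27353 regions were higher in DC and 16 were lower at an adjusted p of 0.05 (0.0951% and 0.0585%, together 0.154%). At an unadjusted p under 0.05 there were 1235 higher and 1176 lower. All 26 higher regions had both scaled DC pileups above both DE pileups, as 15.2% of all tested regions did, and 14 of the 16 lower regions, all but those at Filip1l and Gm46911, had both below, as 15.5% did. The 42 regions lay on 18 chromosomes, none within 100 kb of another. With 1 residual degree of freedom a region, the prior degrees of freedom came out infinite. Each SE and p-value of this fit therefore comes from the spread shared by regions of like pileup. A region's own disagreement between batches does not enter its SE. Filip1l, with log2 ratios of -0.25 in batch 1 and -1.19 in batch 2, had an SE of 0.17. Without the batch term, and also with floor scaling, no region passed in limma in either direction (467 higher and 403 lower at an unadjusted p under 0.05 without the batch term, and 124 and 3 with floor scaling). In the 6-library fit 1 was higher and 2 were lower of 23065 tested, and leaving out DC replicate 1, DE replicate 1, DC replicate 2 or DE replicate 2 from it left 0, 0, 0 and 2 higher and 1, 0, 2 and 3 lower.

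**Figure D3:**
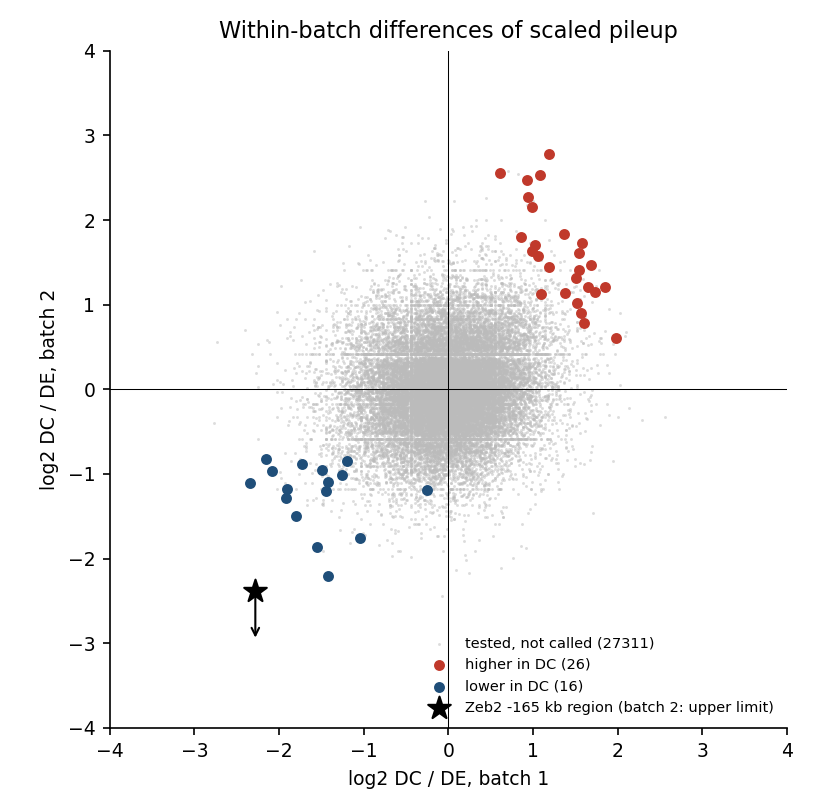
Within-batch log2 ratio of scaled pileup, DC over DE, in batch 1 (horizontal) and batch 2 (vertical) at the 27353 regions called in all 4 libraries, with the 26 higher and 16 lower regions in colour. The star is the Zeb2 -165 kb region, not tested because it lacked a call in DC replicate 2, with its batch 2 value at the limit.

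Among the regions higher in DC, the smallest p belonged to a region inside Prkar1b, a regulatory subunit of protein kinase A (chr5:139053200-139053418). It held 135 and 78 fragments in DC, 34 and 34 in DE and 20 and 20 in WT, so both DC libraries stood above the rest. Its difference was 1.58 ± 0.29 (log2, SE). The largest difference, 1.98 ± 0.38 (SE), was inside Scamp1, a membrane protein of secretory carriers, with 65 and 36 fragments in DC, 21 and 7 in DE, 7 in WT replicate 1 and no call in WT replicate 2. A region inside Mnd1, a factor of meiotic recombination, held 103 and 76 fragments in DC against 26 and 38 in DE. A region 36.5 kb from Cxcr5, the receptor for the follicle chemokine CXCL13, held 70 and 35 in DC against 20 and 13 in DE, with 14 and 11 in WT, a difference of 1.60 ± 0.36 (SE). Inside Dock5, an exchange factor for the GTPase Rac, DC held 116 and 58 fragments, DE 41 and 26, and WT 31 and 20. The others named by the rule of smallest p lay at Gm46963, Acp7, Septin5, 2010003K11Rik, Ubtd1, Eea1 and Amer2, with differences from 1.27 (2010003K11Rik) to 1.80 (Acp7). The region nearest Eea1 was 115 kb from that gene, so the gene names mark position and no target is implied. Limma adjusted p for these 12 ran from 0.00129 (Prkar1b) to 0.0250 (Amer2). Over all 26 the log2 difference ran from 1.11 to 1.98 with a median of 1.44, and 17 were at least 2-fold higher in both batches.

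Among the regions lower in DC, the smallest p was inside Xxylt1, a xylosyltransferase that acts on Notch, with 35 and 7 fragments in DC (8 in place of 7 solved its fold and p-value nearly as well), 69 and 43 in DE and 41 and 24 in WT. Its difference was -1.82 ± 0.36 (log2, SE). A region 2.30 kb from Slamf9, a SLAM-family receptor of myeloid cells, held 28 and 12 in DC, 78 and 39 in DE and 81 and 51 in WT, a difference of -1.61 ± 0.35 (SE). DE and WT lay together there, above both DC libraries. A region inside Naip2, a sensor of bacterial secretion systems, held 68 and 31 in DC against 134 and 88 in DE (-1.26 ± 0.27, SE). Inside Rab7b, a GTPase of late endosomes, DC held 126 and 32 fragments and DE 222 and 86 (-1.14 ± 0.25, SE). A region 67.1 kb from Myc, the growth-promoting transcription factor, held 18 and 20 in DC, 56 and 52 in DE and 67 and 48 in WT (-1.52 ± 0.35, SE). Dynlt1b, a dynein light chain, had 73 and 43 in DC against 151 and 111 in DE, and WT, with 49 and 75, was nearer to DC there. The others lay at Rusf1, Ap4s1, Tnks, Klk1b21, Gpr141 and Filip1l. The last held 825 and 144 fragments in DC against 722 and 438 in DE, its scaled DC and DE values overlapped, and its difference of -0.72 was the smallest of the 16. Limma adjusted p for these 12 ran from 0.0036 (Xxylt1) to 0.0330 (Filip1l). Outside the naming rule, and named after their values were seen, the remaining 4 lay nearest Gm46911, Mamdc2, Haao and Tnfaip3, the last 28.5 kb from that gene, which encodes the NF-κB inhibitor A20, with 28 and 22 fragments in DC against 68 and 54 in DE. Over all 16 the median was -1.44, and 10 were at least 2-fold lower in both batches.

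WT pileups, which the fit did not use, were nearer to DE than to DC at most of these regions. All 16 regions lower in DC were called in both WT libraries, as 84.3% of all tested regions were, and WT was nearer to DE at 13 of them. At the other 3, Dynlt1b, Klk1b21 (28 and 55 fragments in WT) and Gpr141 (21 and 22), WT was nearer to DC. Of the 26 regions higher in DC, 15 were called in both WT libraries and 5 in neither, and WT was nearer to DE at 12 of the 15. It was nearer to DC at the other 3, the region nearest Eea1 among them. Over the 23065 tested regions called in both WT libraries, WT was nearer to DE at 55.3%. The median distance of WT on the log2 scale was -0.02 from DE and -1.36 from DC at the regions higher in DC, and -0.36 from DE and 1.10 from DC at the regions lower in DC. The DC and the DE libraries alike enter both the choice of these regions and these distances, so the figures describe where WT lay and hold no test.

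**Figure D4:**
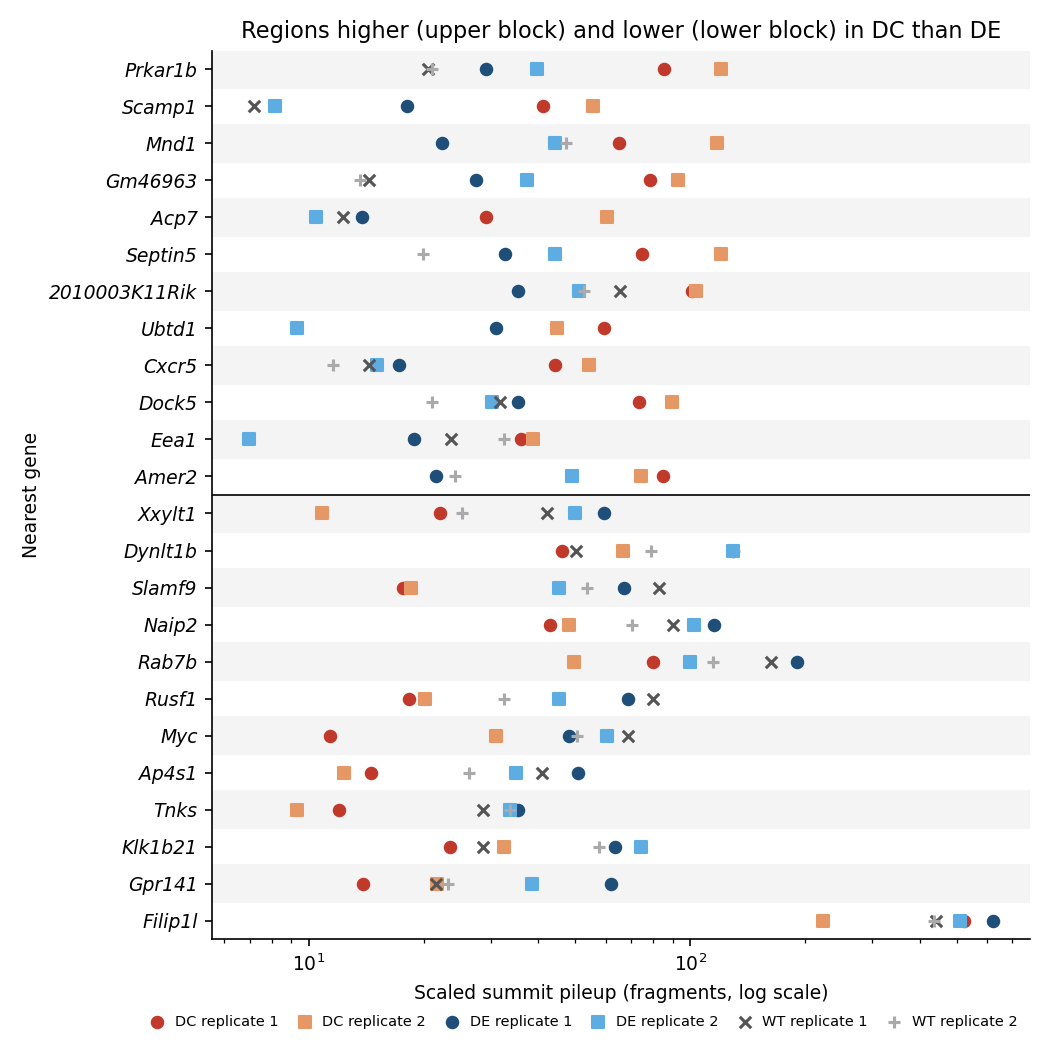
Scaled summit pileup (fragments, log scale) of each library at the 12 regions of smallest p that were higher in DC (upper block) and the 12 that were lower (lower block), by nearest gene. WT points are missing where no peak was called; in the lower block the WT points lie mostly beside the DE points.

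By the annotated spans of protein-coding genes, 17 of the 26 higher regions (65.4%) and 8 of the 16 lower regions lay inside a gene, beside 60% of the 27353 tested regions.

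Acoxl, which encodes an enzyme related to acyl-CoA oxidases, had a promoter that overlapped a region past the threshold, and none of the other promoters in the table used here did, so it is shown. The region, chr2:127854264-127854617, held 91 and 47 fragments in DC, 37 and 18 in DE and 26 and 23 in WT, with a difference of 1.33 ± 0.32 (log2, SE) and a limma adjusted p of 0.0349. Both DC libraries stood above DE and WT after scaling. The promoter, 250 bases before to 50 after the start, is chr2:127854378-127854677 on the plus strand of GRCm38.p6, the assembly of mm10, from RefSeq, with the 1 match to the C/EBP core TTGCNNAA in capitals.
Acoxl: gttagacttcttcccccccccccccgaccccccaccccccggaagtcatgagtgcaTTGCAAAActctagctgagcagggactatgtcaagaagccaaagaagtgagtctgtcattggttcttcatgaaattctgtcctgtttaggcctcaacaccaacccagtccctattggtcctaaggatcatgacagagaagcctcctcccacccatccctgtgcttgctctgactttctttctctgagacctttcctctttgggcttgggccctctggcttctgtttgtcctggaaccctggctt
On both strands, TTGCNNAA stood in 10.9% of the 31396 promoters of this length in the table and in 11.5% of the 6201 that overlapped a tested region. The Acoxl promoter held no match to the E-box CANNTG (72.2% of the 31396), the AP-1 motif TGANTCA (7.84%) or the PU.1 motif AGGAAGT (9.37%). Such a match is a string of letters and not a measured site.

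Regions called in one genotype alone were more often DC regions, but the batches went opposite ways. In both DC libraries and neither DE library 2591 regions were called (7.28% of those called in both DC), and 660 in both DE and neither DC (2.01% of those called in both DE). In batch 1 alone 125181 regions were called in DC and not DE against 13304 in DE and not DC, while in batch 2 alone the counts were 14309 and 21518. With each list cut to its strongest 49038 peaks, the length of the shortest, the counts were 1506 and 1394. DC replicate 1 was the only caller of 113650 regions, or 57.3% of the union. Its long list moved with the first pair of counts, and its part in the result was not tested beyond this equal-length count. Most of the regions were weak, with median pileups of 15 and 8 fragments for the DC set and 13 and 9 for the DE set. Both WT libraries had a call at 10.7% of the DC set and 19.5% of the DE set, and neither had one at 56.8% and 42.4%.

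The highest pileups in the DC set, up to 4722 and 1466 fragments, belonged to 5 regions with backgrounds of at least 1067 fragments in DC replicate 1. At these 5 the limit for DE was so high that none was shown to be 2-fold higher in DC. The regions called in DC alone that are named next are the 8 highest when each is placed by the poorer of its q-value ranks. A region inside Tacc2, a centrosomal coiled-coil protein, held 72 and 26 fragments in DC, where DE would have been called above 6 and 3, so DC was at least 8.82-fold and 11.5-fold higher. Regions at Rph3a, Dnah6, Uqcrc1, Clptm1, Prkg1, Pard3 and Onecut1 followed, with DC at least 6.25-fold higher in batch 1 (Clptm1) and 7.03-fold in batch 2 (Uqcrc1) at the least of them. The region nearest Clptm1, 68 and 63 fragments in DC, was also 1.71 kb from Relb, an NF-κB subunit. Of the 8, WT replicate 1 had a call at Tacc2, Uqcrc1 and Prkg1, and WT replicate 2 had one at Rph3a. The strongest region called in DE alone lay inside Ppp2r5e, a regulatory subunit of protein phosphatase 2A. It held 52 and 46 fragments in DE, which was at least 11.8-fold and 8.65-fold higher than DC, and had no call in WT. A region 46.6 kb from Ctsc, the protease that activates granule enzymes of neutrophils, held 31 and 20 in DE and 25 and 19 in WT. A region inside Hif1a, the oxygen-regulated transcription factor, held 26 and 26 in DE and was called in WT replicate 2 with 10. Pola2, Spdye4c, Ubn2, Daam1 and Nfkb1 made up the rest of the 8, with DE at least 4.26-fold higher in the weaker batch at Ubn2, the least of them.

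No region near the listed lineage genes passed the limma test. Within 10 kb of the 235 genes of 17 lists that matched the annotation, 573 regions were tested and 0 were called, against 0.154% of all tested regions. At so low a share few calls or none would be found among 573 regions, so the 0 does not set these genes apart. Windows of 1 kb and 50 kb held 403 and 1124 regions and also 0 calls. At an unadjusted p under 0.05, limma had 21 of the 573 higher and 32 lower (3.66% and 5.58%, beside 4.52% and 4.3% of all tested regions), and the smallest adjusted p was 0.0814. By list, 0 to 4 regions were higher and 0 to 8 lower, and the list with 8 was that of stem and progenitor genes (3 higher, of 112 regions). The medians of the lists lay between -0.16 (B lymphoid) and 0.21 (non-haematopoietic), beside 0.00 over all tested regions. The neutrophil and monocyte list, with 87 regions, had a median of 0.00. For the dendritic lists the medians were -0.05 over 43 regions (cDC1), -0.15 over 34 (cDC2) and 0.06 over 34 (pDC).

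The most strongly bound region of each list did not pass the test in any of the 17 lists. With 0.154% of all tested regions passing, so few regions say nothing about the lists. At Fes, a tyrosine kinase of myeloid cells, the region at the gene start held 751 and 269 fragments in DC against 500 and 351 in DE, a difference of 0.09 ± 0.17 (log2, SE), with scaled values that overlapped. At Nfe2, a factor of the erythroid and megakaryocyte lineages, 789 and 259 fragments in DC stood beside 599 and 399 in DE (-0.13 ± 0.17, SE). The region at Fli1, an ETS factor of stem cells, held 690 and 175 in DC against 460 and 206 in DE (0.16 ± 0.19, SE). Cadm1, an adhesion molecule of cDC1, had 344 and 107 against 253 and 144 (-0.01 ± 0.21, SE). Clec12a, a lectin receptor, had 393 and 89 against 305 and 169 (-0.30 ± 0.21, SE). The region 4.63 kb from Fos held 437 and 148 in DC against 451 and 247 in DE, with the largest difference of this group, -0.41 ± 0.19 (SE), and a limma adjusted p of 0.503. Il1b, the inflammatory cytokine, differed between batches at its strongest region, with 725 against 440 in batch 1 and 128 against 291 in batch 2. The other lists were led by regions at Runx2 (pDC), Igll1 (B lymphoid), Cd3g (T and NK), Hdc (mast cells and basophils), Ddit3 (C/EBP family), Id1 (Id and E proteins), Ccr1 (chemokines), Rsad2 (interferon response), Col1a1 (non-haematopoietic) and Gusb (housekeeping), with differences from -0.17 (Ddit3) to 0.32 (Cd3g). At the gene for C/EBPα itself, the strongest of 2 regions near Cebpa held 171 and 77 fragments in DC against 91 and 116 in DE (0.14 ± 0.24, SE). The strongest of 4 regions at Nfil3 held 182 and 114 in DC against 126 and 129 in DE (0.16 ± 0.23, SE). The 1 region at Batf3, which cDC1 require, held 46 and 15 in DC against 66 and 29 in DE, a difference of -0.75 ± 0.34 (SE) with a limma adjusted p of 0.484.

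**Figure D5:**
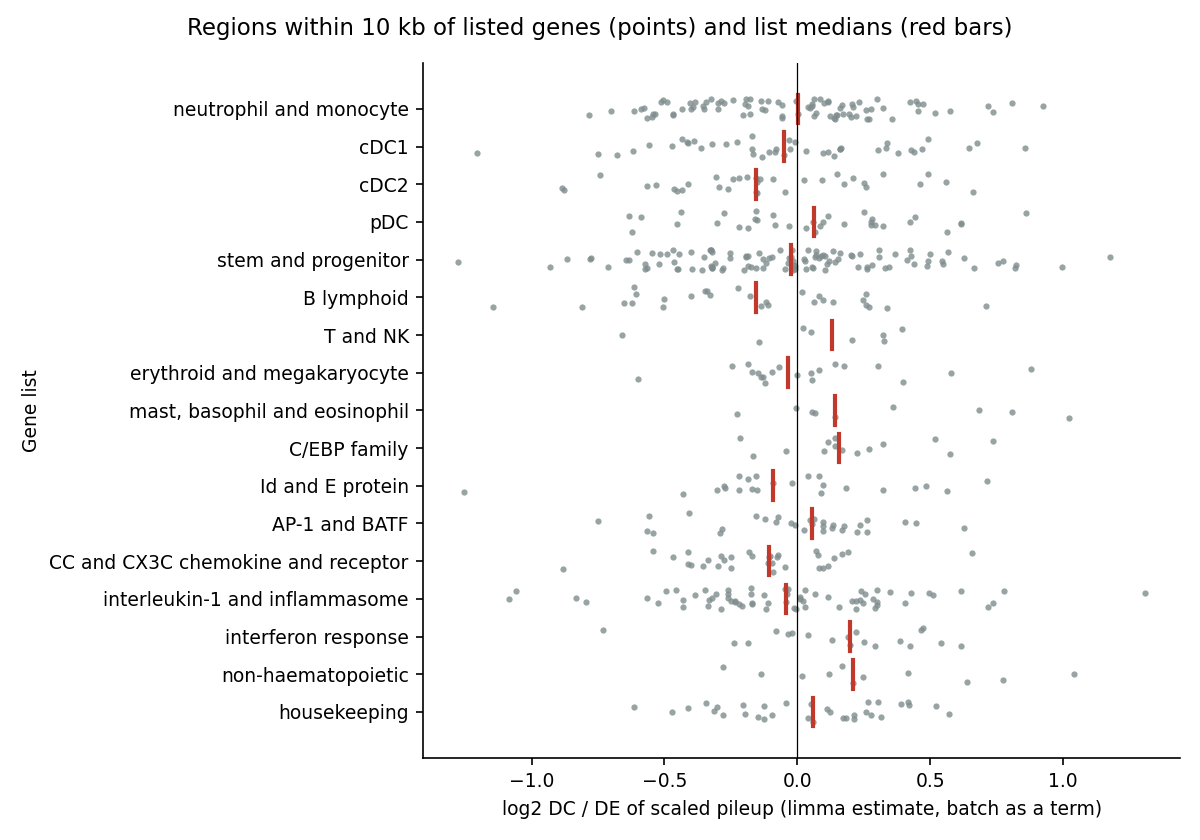
Log2 DC to DE difference of scaled pileup (limma estimate with batch as a term) for each region within 10 kb of a gene of each list (points), with the list's median (red bar). The medians lie between -0.16 and 0.21 and no point passed the adjusted threshold.

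Some weaker regions near listed genes moved at least 2-fold in both batches, without passing the test. Chosen after their values were seen, those called in all 4 libraries were 3 lower and 1 higher of 573 (0.524% and 0.175%, beside 0.271% and 0.314% of all tested regions). The region 0.92 kb from Id1, an inhibitor of E proteins, held 15 and 10 fragments in DC, 31 and 27 in DE and 30 and 57 in WT, a difference of -1.26 ± 0.41 (SE) with a limma adjusted p of 0.235. The region 8.16 kb from Etv6, an ETS repressor needed by stem cells, held 14 and 6 in DC against 21 and 23 in DE. The region 8.97 kb from Il1b held 15 and 8 in DC against 24 and 22 in DE. The region inside Irak3, an inhibitor of Toll-like receptor signalling, held 84 and 11 in DC against 21 and 7 in DE, a difference of 1.31 ± 0.41 (SE). With a missing call set at its limit, 17 of 682 were lower (2.49%, beside 2.04% overall) and 14 of 724 were higher (1.93%, beside 3.01%). Of the lists, the stem and progenitor genes had 7 of 139 lower (5.04%) and 2 of 144 higher (1.39%), without a test. Most of these 7 entered with DC at its limit, all held only 8 to 26 fragments in DE, and Etv6 gave regions of both directions. Lower shares were larger in the T and NK list (1 of 10, 10%) and the Id and E protein list (2 of 28, 7.14%). The mast, basophil and eosinophil list had 1 of 14 (7.14%). The neutrophil and monocyte list had 1 of 95 lower (1.05%) and 2 of 105 higher (1.90%), both under the shares of all regions. These few regions, at genes of neutrophil granules, went both ways. Near Ngp and Mpo peaks were called in DC and not in DE, with 31 and 31 fragments and with 20 and 9. WT held 15 and 13 at the Mpo region, and WT replicate 2 held 22 at the Ngp region. A region inside Ltf held 13 fragments in DC replicate 1 and had no call in DC replicate 2, against 22 and 10 in DE and 16 and 29 in WT.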

How the data were processed

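The submitters' processing notes name MACS2 2.2.9.1, Bowtie2, Trimmomatic, HOMER and SAMtools with build mm10. Whether the 2 IgG libraries served as control is not given in the sources used here. The authors deposited 1 peak list per anti-C/EBPα library, called at a q of 0.1, with a score, a fold over local background (a ratio), −log10 values of p and q and the summit position of each peak. The deposited score and the IgG libraries were not used here. Members and gene lists were chosen with earlier results of these data known.

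Pileup k and background λ were recovered from the deposited fold, (k + 1)/(λ + 1), and the Poisson p-value, accepting k within 5% of a whole step. This left 12 union regions unsolved. In DC replicate 2 and DE replicate 2, 4085 and 364 peaks of 4 to 8 fragments had a rival whole k, and the closer was taken; they touched 596 tested regions and 1 of the 42 past the threshold, at Xxylt1. A region's value is its strongest peak. At regions with a pileup in all 4 libraries, log2 pileups were scaled by their median and fitted with limma 3.58.1 (R 4.3.3; trended variance, genotype and batch, Benjamini-Hochberg, 0.05), whose prior degrees of freedom came out infinite. The limma fit was also run on simulated data with noise of the same size at every region. Such data cannot show how its p-values behave where regions differ in their spread between batches. Batch is a pairing given by the labels, and the batch deviations of DC and DE had r = 0.363 over regions. A library without a call was given the highest pileup that stays uncalled at the local background of its partner in the batch. Gene spans and promoters came from RefSeq tables of GRCm38.p6, and what is said of promoters covers those listed. Regions were named by rule: the 12 of smallest p per direction, the 8 of best worse rank in each set called in one genotype alone, Zeb2 locus regions called in 2 or more libraries, for each list the 4 of smallest p past the threshold or else the strongest, and promoters overlapping a region past the threshold. Python 3.11.15, numpy 2.4.6, pandas 2.3.3 and scipy 1.17.1 were used. Alternatives varied the scaling, the value, the filter, the joining of peaks, the chromosomes and the libraries fitted. Some genes are not reported here.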

Additional observations from a re-analysis of the deposited data

Results flagged for a closer look

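Peaks on chromosome Y, which entered no comparison, were more numerous than in either WT list (12 and 20) in DE replicate 1 with 82, in DE replicate 2 with 65 and in DC replicate 1 with 24. DC replicate 2 had 13. Of these, 72 and 54 of the DE peaks lay beyond 90 Mb of the chromosome, against 4 in each DC list and 4 and 9 in WT. On chromosome X the median log2 ratio of DC over DE pileup, unscaled, was 0.38 in batch 1 and -0.39 in batch 2, inside the range of the single autosomes in each batch (0.35 to 0.43, and -0.42 to -0.32).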

How the results depend on the processing

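The count of regions higher and lower in DC, 26 and 16, was 0 and 0 without the replicate block, where the smallest adjusted p was 1.00 and 467 higher and 403 lower regions had an unadjusted p under 0.05. It was 0 and 0 with floor scaling (124 and 3 at an unadjusted p under 0.05), 15 and 13 with the deposited fold in place of the pileup, and 1 and 2 in the replicate block fit of all 6 libraries. Leaving out 1 library from that fit gave 0 to 2 higher and 0 to 3 lower. Quantile and cyclic loess normalization, a mean pileup of at least 20, a q of 0.01, summits within 150 bp and chromosome X gave 23 to 26 and 15 to 17. The 24 named regions of these sets kept their direction in every fit that tested them, and 9 of them passed with the deposited fold. The kept direction is no separate support, since regions were named only where both batches went the same way. Dropping the replicate block leaves each estimate unchanged. Floor scaling moves all estimates by the same amount, which is smaller than any of the 24 differences. Regions called in one genotype alone, 2591 in DC and 660 in DE, were 1506 and 1394 with lists of equal length, and 14309 to 125181 and 13304 to 21518 in 1 batch alone. Regions at least 2-fold higher in DC in both batches, 1071, were 2220 with floor scaling and 86 among regions called in all 4 libraries. They were 3543 to 4710 by the ratio of 1 batch only, still over regions called in both libraries of the genotype. Those lower, 669, were 237, 74 and 2708 to 3625. These alternatives for 2-fold counts were chosen after seeing the data. The log2 ratio at the Zeb2 -165 kb region in batch 1, -2.28, was -1.37 with floor scaling and -1.66 with the deposited fold. The batch 2 limit, -2.38, was -5.51 with the background of DC replicate 1, a library of the other batch, so -5.51 is not a bound. The deposited fold could give no batch 2 value without a call. The cause of these shifts was not tested, apart from the fewer samples, regions or batches that an alternative itself leaves. Depth is unknown, and a weak region can fall on either side of a call by 1 or 2 fragments.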
